A study of Mus musculus with 12 samples.

Results

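Matrix metalloproteinases, ADAMTS proteases, their TIMP inhibitors and the lysyl oxidases were followed at the RNA and ribosome footprint level in mouse embryonic fibroblasts (MEFs) with and without loss of ARF. The genes were chosen by symbol: every Mmp gene, Timp1 to Timp4, every numbered Adamts gene, and Lox with Loxl1 to Loxl4. This gave 51 of the 20661 genes in the count files, and 29 of them had a mean of 10 or more counts over the 12 libraries. Among those 29 were 5 of 16 secreted Mmp genes, 4 of 7 membrane-type Mmp genes, 3 of 4 Timp genes, 5 of 5 lysyl oxidases and 12 of 19 Adamts genes.

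RNAseq and ribosome profiling were each performed on 3 groups with 2 replicates per group. WT-shSCR were MEFs of WT genotype transduced with a control lentiviral shRNA, WT-shARF were WT MEFs transduced with an shRNA against ARF, and ArfKO-shSCR were Arf-/- MEFs transduced with the control shRNA. All MEFs were at passage 4 and all had been transduced with lentivirus. The mouse strain was labelled C57BL/6J for WT, where the study's methods name B6129SF2/J, and B6.129X1-Cdkn2atm1Cjs/KaiJ for ArfKO, so strain and Arf genotype cannot be told apart in the knockout comparison. The knockout replaces the exon that is specific to Arf, while the neighbouring product of the same gene, p16INK4A, uses the remaining exons. Nothing in the labels says that replicates were separate cultures or embryos, so the p-values measure only the spread between these libraries.

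Reads assigned to genes ranged from 1578627 to 3989908 per RNA library and from 2544319 to 5157572 per footprint library. The 51 genes took 0.376 to 0.507% of the RNA reads and 0.668 to 0.967% of the footprints. Fibroblast markers were abundant as a sum in every group, with 16429 to 24547 RNA counts scaled to library size (CPM) over 11 markers. None was at 0 in both libraries of a group, but some were scarce. Mean RNA CPM in WT-shSCR was 3.16 for Pdgfra, 2.46 for Dcn and 1.46 for Lum, beside 5156 for Vim and 8565 for Fn1. The targeted gene was checked first. Cdkn2a, which encodes both p19ARF and p16INK4A, stood at 44.8 and 41.4 RNA CPM in WT-shSCR, 638 and 678 in WT-shARF and 27.7 and 32.4 in ArfKO-shSCR. Its footprints were 92.5 and 65.1 CPM in WT-shSCR, 525 and 744 in WT-shARF and 40.4 and 35.0 in ArfKO-shSCR. Cdkn2a counts were thus higher, not lower, in the libraries labelled WT-shARF (log2 fold change 3.91, SE 0.16, adjusted p = 5.57e-18 for RNA), and the counts do not separate the products. These libraries are therefore called by their label below, and directions drawn from them refer to that label. ARF protein, which the study measured by immunoblot, was not analysed here.

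Matrix metalloproteinases (MMPs) are zinc proteases that cleave collagens, fibronectin and other matrix proteins. Most are secreted as inactive proenzymes, and the membrane-type enzymes act at the cell surface. TIMPs are small secreted proteins that block their catalytic sites. ADAMTS proteases are secreted relatives that process procollagens or cleave proteoglycans such as aggrecan and versican. Lysyl oxidases are copper enzymes that oxidise lysines of collagen and elastin so that the fibres become cross-linked. Fibroblasts make many of these proteins.

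Many Mmp genes lie in 1 cluster on chromosome 9, from Mmp13 (start at 7272514) to Mmp7 (end at 7699585) in GRCm38. Several promoters of that cluster are known for an AP-1 site close to a TATA box, and Mmp3 was the 1 member of the cluster with a mean of 10 or more counts. The 120 bases before the RefSeq start (GRCm38.p6) are therefore shown for Mmp3 and for its neighbours Mmp10 and Mmp13, which were nearly silent here. Capitals mark the AP-1 motif TGAGTCA and the TATA box TATAAA, on either strand. The windows are chr9:7445702-7445821, plus strand, chr9:7502222-7502341, plus strand, and chr9:7272394-7272513, plus strand.
Mmp3: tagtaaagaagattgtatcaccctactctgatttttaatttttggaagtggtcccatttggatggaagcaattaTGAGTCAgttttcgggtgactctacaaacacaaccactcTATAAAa
Mmp10: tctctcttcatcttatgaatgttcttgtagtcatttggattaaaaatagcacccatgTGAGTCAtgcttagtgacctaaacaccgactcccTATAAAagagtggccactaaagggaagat
Mmp13: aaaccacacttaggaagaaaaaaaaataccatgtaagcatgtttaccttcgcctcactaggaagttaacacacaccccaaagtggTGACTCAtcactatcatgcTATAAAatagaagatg
In Mmp3 the AP-1 motif began 46 bases and the TATA box 7 bases before the start. The distances were 63 and 29 bases in Mmp10 and 35 and 16 bases in Mmp13.

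The same windows of 4 genes called in the comparisons below are shown next, because they hold GC boxes in place of the AP-1 motif. Capitals mark the GC box GGGCGG and the TATA box TATAAA, on either strand. Adamts1 is at chr16:85803114-85803233, minus strand, Timp1 at chrX:20870046-20870165, plus strand, Timp2 at chr11:118355412-118355531, minus strand and Loxl4 at chr19:42612807-42612926, minus strand.
Adamts1: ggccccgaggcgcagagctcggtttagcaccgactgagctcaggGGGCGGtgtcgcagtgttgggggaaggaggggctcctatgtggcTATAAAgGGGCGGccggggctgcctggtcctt
Timp1: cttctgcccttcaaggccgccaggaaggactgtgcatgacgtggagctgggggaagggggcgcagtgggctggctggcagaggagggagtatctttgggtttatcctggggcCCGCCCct
Timp2: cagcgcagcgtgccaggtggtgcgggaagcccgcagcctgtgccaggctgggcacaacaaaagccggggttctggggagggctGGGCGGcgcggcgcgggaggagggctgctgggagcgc
Loxl4: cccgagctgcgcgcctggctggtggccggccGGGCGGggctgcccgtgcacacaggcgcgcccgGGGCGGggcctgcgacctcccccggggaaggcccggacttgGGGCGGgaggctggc
Among these 4 only the Adamts1 window held a TATA box, 32 bases before the start. A promoter entry existed for 33 of the 51 members, with 36 promoters of 250 bases before to 50 bases after the start. The AP-1 motif was found in 7 of these 36, all of them in the chromosome 9 cluster, and in 5.2% of all 32851 promoters. In that cluster the Mmp8 and Mmp20 promoters held a TATA box without the AP-1 motif, and the Mmp27 promoter held neither. The TATA box was found in 11 of 36 (13.6% of all) and the GC box in 19 of 36 (35.7% of all). Of the called members outside the cluster that are not shown, Timp3 and Adamts14 held GC boxes. The Adamts12 promoter, also of a called member, held no AP-1 motif, TATA box or GC box. A match describes the letters in the window and does not show that a factor binds there. Mmp2, Mmp9, Lox, Loxl2, Loxl3, Adamts5 and Adamts8 had no entry.

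Levels per coding length set the order of the members in control cells. Values in this paragraph are RNA CPM per kilobase of coding sequence in WT-shSCR. Timp1 was the highest member at 2115, followed by Lox at 456, Timp2 at 434 and Loxl2 at 399. Among the proteases Mmp2, a gelatinase, reached 227 and Mmp14, the membrane-type collagenase that activates pro-MMP2, reached 162. Loxl1 stood at 222, Loxl3 at 89.5, Timp3 at 85.1 and Loxl4 at 25.6. The next secreted and membrane-type enzymes were far lower, with Mmp11 at 18.9 and Mmp23 at 25.7. Adamts1 (32.2), Adamts12 (18.0) and Adamts5 (15.7) led the Adamts genes. Lox, Timp2 and Loxl2 were close to each other in WT-shSCR and kept this order by group mean in the other groups. Timp2 and Loxl2 were nearly level in WT-shARF, at 299 and 297, and further apart in ArfKO-shSCR, at 302 and 177.

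**Figure D1:**
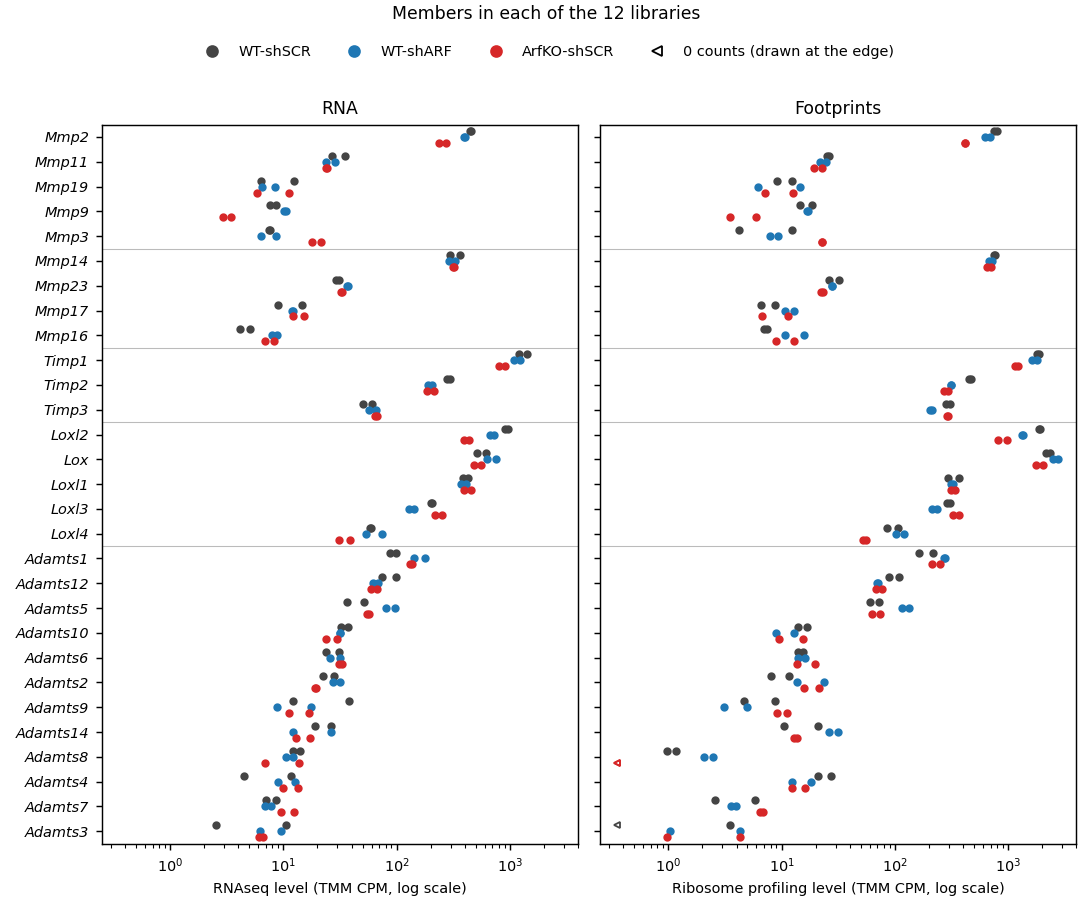
RNA level (left) and footprint level (right) of the 29 described members in each of the 12 libraries, as TMM-scaled CPM on a log axis, with 1 point per library, 2 per group, and grey lines between the classes. Timp1, Loxl2 and Lox sit at the right. In the rows of Loxl2 and Mmp2 the ArfKO-shSCR points lie left of those of the other groups in both panels.

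The other 22 members were under a mean of 10 counts. Their highest count in any library was 28, for Adamts20, and Mmp7 had 0 counts in all 12 libraries. Mmp12, an elastase of macrophages, had 3 to 18 counts per library, and Mmp13, a collagenase, had 2 to 12. The remaining cluster genes Mmp1a, Mmp1b, Mmp8, Mmp10, Mmp20 and Mmp27 had at most 6 counts in any library. Timp4 had at most 1 count. Differences in these genes were mostly not detectable at this depth. Coding sequences of Mmp12 and Mmp1b overlap in the annotation, so reads there may be shared or lost.

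The comparison of ArfKO-shSCR with WT-shSCR asks what loss of Arf changes. Secreted gelatinase Mmp2, the inhibitors Timp1 and Timp2, and the lysyl oxidases Loxl2 and Loxl4 fell in RNA and in footprints, while Mmp3 (stromelysin-1) rose in both. In RNA, 5 of 31 tested members fell against 3.99% of all 10659 genes tested, and 1 of 31 rose against 3.94%. In footprints, 9 of 30 fell against 8.95% of all 10737 genes, and 1 of 30 rose against 9.57%. The 6 genes called in RNA were all among the 10 called in footprints, and Lox, Mmp9, Adamts12 and Mmp12 were called in footprints and not in RNA. Mmp12 passed the filter on low counts through WT-shSCR only, and 8 members fell in footprints without it. The median log2 fold change of the members was -0.17 in RNA and -0.18 in footprints, beside -0.00 for all genes in each assay.

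Loxl2, a lysyl oxidase with scavenger receptor domains (chr14:69609068-69695834), had the largest RNA decrease among the members called in RNA in ArfKO-shSCR against WT-shSCR. Its RNA was 896 and 963 CPM in WT-shSCR, 664 and 721 in WT-shARF and 433 and 390 in ArfKO-shSCR. Its footprints were 1854 and 1898 CPM, 1329 and 1364, and 813 and 977 in the same order. The 3 groups did not overlap in either assay, with WT-shSCR highest and ArfKO-shSCR lowest. Loxl2 was 2.28-fold lower in ArfKO-shSCR than in WT-shSCR RNA (log2 fold change -1.19, SE 0.15, adjusted p = 3.95e-05) and 2.15-fold lower in footprints (-1.10, SE 0.08, adjusted p = 2.59e-12). Loxl4, its relative on chromosome 19, had 59.9 and 58.6 RNA CPM in WT-shSCR, 54.1 and 73.9 in WT-shARF and 38.9 and 31.1 in ArfKO-shSCR. Its footprints were 106 and 84.4, 102 and 119, and 55.7 and 52.4 CPM. The ArfKO-shSCR libraries were lowest in both assays and the other groups overlapped. Loxl4 fell 1.70-fold in RNA (adjusted p = 0.0441, but 0.187 by DESeq2) and 1.81-fold in footprints (adjusted p = 0.000207). Lox, the founding member of the family, had 515 and 610 RNA CPM in WT-shSCR, 631 and 749 in WT-shARF and 484 and 556 in ArfKO-shSCR, and the last overlapped with WT-shSCR. Its footprints were 2355 and 2166 CPM in WT-shSCR, 2753 and 2503 in WT-shARF and 1760 and 2022 in ArfKO-shSCR, without overlap. The Lox footprint decrease was 1.22-fold (log2 fold change -0.29, SE 0.07, adjusted p = 0.00267), and it was -0.19 without ArfKO-shSCR replicate 1. Loxl1 and Loxl3 were not called.

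Mmp2 (chr8:92827291-92853420) had 455 and 448 RNA CPM in WT-shSCR, 392 and 400 in WT-shARF and 234 and 272 in ArfKO-shSCR. Its footprints were 791 and 743, 696 and 630, and 415 and 415 CPM in the same order. The ArfKO-shSCR libraries were lowest in both assays and did not overlap with either other group. The decrease against WT-shSCR was 1.80-fold in RNA (log2 fold change -0.85, SE 0.15, adjusted p = 0.000991) and 1.89-fold in footprints (-0.92, SE 0.08, adjusted p = 9.58e-10). Mmp14, which works with TIMP2 to activate pro-MMP2 at the cell surface, had 296 and 361 RNA CPM in WT-shSCR, 288 and 328 in WT-shARF and 321 and 317 in ArfKO-shSCR. The groups overlapped, and the log2 fold change of -0.05 for ArfKO-shSCR against WT-shSCR had a 95% interval of -0.37 to 0.27. Mmp14 footprints were 772 and 752, 678 and 726, and 651 and 699 CPM (log2 fold change -0.21, SE 0.08, adjusted p = 0.0691).

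Mmp11, stromelysin-3, had 34.7 and 26.8 RNA CPM in WT-shSCR, 23.9 and 28.3 in WT-shARF and 24.4 and 23.8 in ArfKO-shSCR, and its log2 fold change in ArfKO-shSCR was -0.38 (SE 0.28, adjusted p = 0.459). Mmp23, which has a membrane anchor at its amino end, had 29.0 and 31.2, 37.2 and 36.4, and 32.4 and 32.9 RNA CPM (log2 fold change 0.11, SE 0.26, adjusted p = 0.861). Footprints of Mmp11 ran from 19.4 to 25.9 CPM over the libraries, and those of Mmp23 were 31.8 and 26.3, 28.1 and 27.7, and 22.2 and 23.4. Mmp11, Mmp14, Mmp23 and Loxl1 were not called in any of the 9 tests.

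The inhibitors Timp1 and Timp2 fell together, and Timp3 was not called. Timp1 (chrX:20870166-20874735) had 1405 and 1197 RNA CPM in WT-shSCR, 1223 and 1077 in WT-shARF and 803 and 907 in ArfKO-shSCR. Timp1 footprints were 1887 and 1791, 1810 and 1630, and 1159 and 1232 CPM. ArfKO-shSCR was lowest in both assays, and the other groups overlapped. Timp1 was 1.54-fold lower in RNA (log2 fold change -0.62, SE 0.15, adjusted p = 0.0121) and 1.58-fold lower in footprints (-0.66, SE 0.07, adjusted p = 1.48e-08). Timp2 (chr11:118301069-118355740) had 295 and 278 RNA CPM in WT-shSCR, 191 and 205 in WT-shARF and 185 and 214 in ArfKO-shSCR. Timp2 footprints were 452 and 472, 314 and 315, and 296 and 269 CPM. WT-shSCR was highest in both assays, and WT-shARF and ArfKO-shSCR overlapped in RNA. Timp2 fell 1.45-fold in RNA (adjusted p = 0.0344, but 0.0885 by DESeq2) and 1.67-fold in footprints (adjusted p = 7.19e-07). Summed over the class, Timp footprints were 2596 ± 39.7 CPM in WT-shSCR and 1768 ± 28.0 in ArfKO-shSCR (SD, n = 2). The summed fibroblast markers were also lower in ArfKO-shSCR, at 17536 and 16429 RNA CPM against 21423 and 24547 in WT-shSCR. Most of that difference was fibronectin (Fn1), with a mean of 3079 CPM against 8565. Of 10 fibroblast markers tested in RNA, Fn1 alone fell, beside 3.99% of all genes. Col3a1 and Pdgfra rose, beside 3.94%, and the median log2 fold change was -0.05. In footprints 4 of 11 rose, beside 9.57% of all genes, and 3 fell, beside 8.95%. Pdgfra in RNA, and Dcn and Lum in footprints, passed the filter on low counts only through ArfKO-shSCR, where they were high. The part of the fibroblast markers in the lower levels of Loxl2, Mmp2, Timp1 and Timp2 was not tested.

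Mmp3, which cleaves proteoglycans and activates other pro-MMPs (chr9:7445822-7455975), had 7.54 and 7.65 RNA CPM in WT-shSCR, 6.37 and 8.56 in WT-shARF and 21.5 and 17.7 in ArfKO-shSCR. Mmp3 footprints were 4.22 and 12.4, 9.24 and 7.91, and 22.6 and 22.8 CPM. The ArfKO-shSCR libraries were highest in both assays, from 41 to 116 counts each. The increase was 2.56-fold in RNA (log2 fold change 1.35, SE 0.39, adjusted p = 0.0366) and 2.72-fold in footprints (1.45, SE 0.38, adjusted p = 0.00693). The RNA call was lost by DESeq2 (adjusted p = 0.179) and without ArfKO-shSCR replicate 1 or either WT-shSCR replicate (0.143 to 0.188). The WT-shSCR footprint replicates were far apart, and the footprint log2 fold change was 0.84 without replicate 1 and 2.39 without replicate 2. Mesothelial markers moved with Mmp3: their sum over 8 genes was 99.1 and 94.9 RNA CPM in WT-shSCR and 177 and 201 in ArfKO-shSCR, and 90.6 and 113 against 231 and 225 in footprints. Of these 8, 5 rose in RNA, beside 3.94% of all genes, and 7 in footprints, beside 9.57%. The 5 called in RNA passed the filter on low counts only through ArfKO-shSCR, where they were high. The same held for those called in footprints except Krt18. In WT-shARF against WT-shSCR only 2 of the 8 markers had enough counts to be tested. The part of these markers in the Mmp3 result was not tested.

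Mmp9, the gelatinase typical of myeloid cells, had 14.6 and 18.6 footprint CPM in WT-shSCR, 16.7 and 17.1 in WT-shARF and 3.53 and 5.91 in ArfKO-shSCR. Its RNA was 8.67 and 7.65, 10.6 and 10.2, and 2.91 and 3.46 CPM. ArfKO-shSCR was lowest in both assays, and the other groups overlapped in footprints. Mmp9 footprints fell 3.58-fold (log2 fold change -1.84, SE 0.44, adjusted p = 0.00269), while the RNA value of -1.37 (SE 0.58) did not pass the test (adjusted p = 0.164). Mmp12, named after its values were seen because its mean was under 10 counts, had 18 and 9 footprint counts in WT-shSCR, 8 and 12 in WT-shARF and 5 and 3 in ArfKO-shSCR. Its RNA counts were 12 and 9, 5 and 10, and 10 and 6. The footprint log2 fold change was -2.57 (SE 0.83, adjusted p = 0.0278), but the gene passed the filter on low counts only through WT-shSCR, where it was high. The call was lost with no filter (adjusted p = 0.0753), by DESeq2 (0.0917), with a replicate block (0.0515) and without any 1 of the 4 libraries (0.164 to 0.361). Macrophage markers moved in the same direction. Their sum over 18 genes was 846 and 811 RNA CPM in WT-shSCR, 418 and 332 in WT-shARF and 76.1 and 132 in ArfKO-shSCR, with 978 and 964, 480 and 395, and 70.3 and 91.0 CPM in footprints. In ArfKO-shSCR, 16 of 18 fell in RNA, beside 3.99% of all genes, and 16 of 16 in footprints, beside 8.95%. None was at 0 in both libraries of a group. Several, among them Tyrobp, Cd53 and Laptm5, passed the filter on low counts only through WT-shSCR, where they were high. Csf1r, Lyz2, Adgre1, Itgam and C1qc passed it in ArfKO-shSCR as well and fell in both assays. In WT-shARF, where the sum was also below WT-shSCR, the Mmp9 footprint log2 fold change was 0.02 (SE 0.35). The part of these markers in the Mmp9 and Mmp12 results was not tested, and in bulk samples fewer cells of a type and less RNA per cell cannot be told apart.

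**Figure D2:**
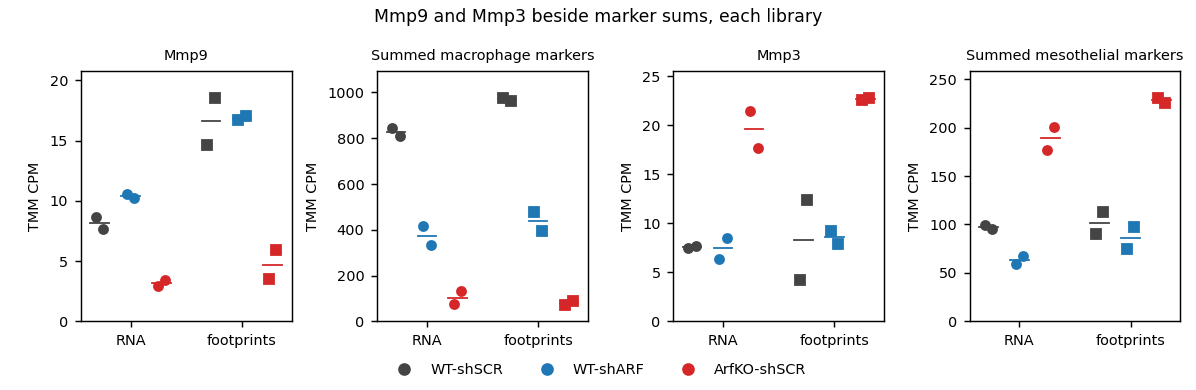
Level in TMM-scaled CPM (each vertical axis starts at 0) of Mmp9, the summed macrophage markers, Mmp3 and the summed mesothelial markers, in RNA (circles) and footprints (squares), with 1 point per library and a bar at each group mean. Mmp9 is low in ArfKO-shSCR and near the WT-shSCR level in WT-shARF, while the macrophage sum is lower in both, and Mmp3 and the mesothelial sum are highest in ArfKO-shSCR.

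Of the Adamts genes 1 of 11 tested fell in ArfKO-shSCR footprints, near the 8.95% of all genes, and 0 of 13 were called in RNA. The called gene was Adamts12, which processes cartilage oligomeric matrix protein. Adamts12 RNA was 74.2 and 98.8 CPM in WT-shSCR, 61.6 and 68.7 in WT-shARF and 67.3 and 59.2 in ArfKO-shSCR. The WT-shSCR libraries were highest. Adamts12 footprints were 89.0 and 109 CPM in WT-shSCR, 71.4 and 69.1 in WT-shARF and 77.5 and 67.7 in ArfKO-shSCR (1.39-fold lower in ArfKO-shSCR than in WT-shSCR, adjusted p = 0.0277, but 0.0943 by DESeq2), and the log2 fold change of -0.48 was -0.32 without WT-shSCR replicate 2. The summed RNA of the class was 406 ± 24.9 CPM in WT-shSCR and 414 ± 2.50 in ArfKO-shSCR (SD, n = 2).

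Each library was left out in turn, with the single library left in a group assumed to vary like the other group. Of the 6 RNA calls, 3 kept an adjusted p under 0.05 without ArfKO-shSCR replicate 1, 5 without ArfKO-shSCR replicate 2, and 2 without either WT-shSCR replicate. The RNA decreases of Loxl2 and Mmp2 were kept in all 4 refits. Of the 10 footprint calls, 6 were kept without ArfKO-shSCR replicate 1 and 8 without replicate 2, but 0 without either WT-shSCR replicate, where the adjusted p-values lay between 0.0724 and 0.314. No direction changed. With 2 libraries against 2, an exact permutation test cannot give a p below 0.333, and the adjusted p-values draw on the variability of all genes fitted together.

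**Figure D3:**
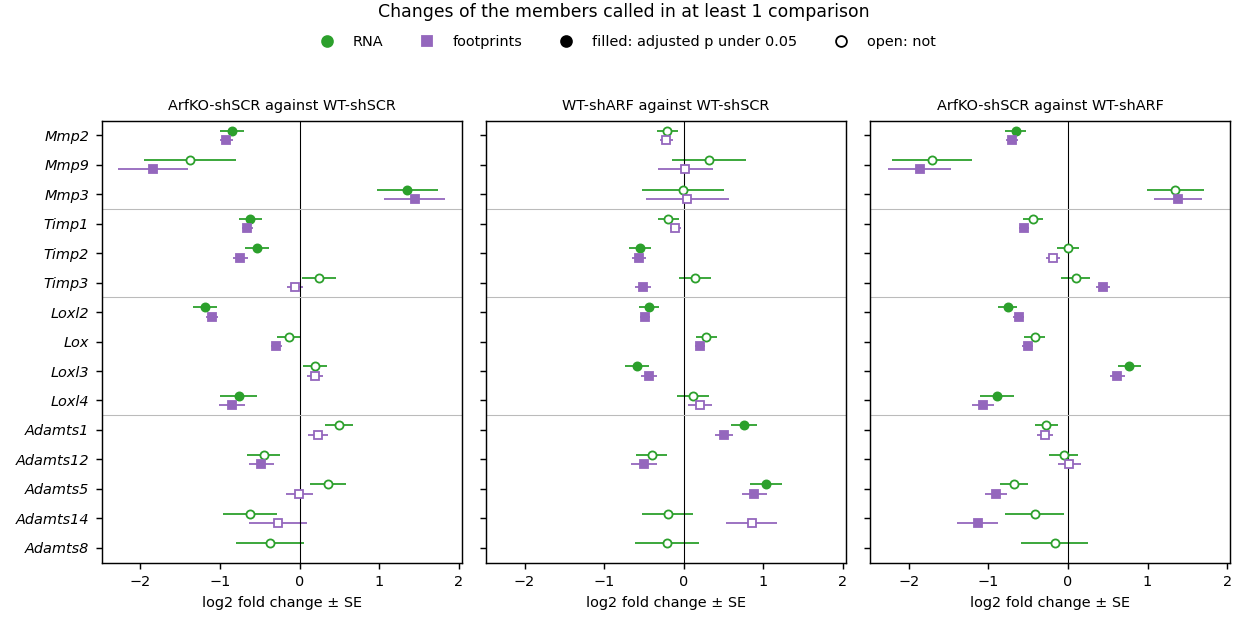
Log2 fold change ± SE of the 15 described members called in RNA or footprints in at least 1 comparison, for ArfKO-shSCR against WT-shSCR, WT-shARF against WT-shSCR and ArfKO-shSCR against WT-shARF, with circles for RNA, squares for footprints and filled symbols at an adjusted p under 0.05. Adamts8 footprints are left out because the ArfKO-shSCR libraries were at 0. Loxl2 and Mmp2 lie left of 0 in the left panel in both assays, and Adamts1 and Adamts5 lie right of 0 in the middle panel.

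The libraries labelled WT-shARF were compared with the same WT-shSCR controls, so the comparisons are not independent. The aggrecanases Adamts1 and Adamts5 rose, and Loxl2, Loxl3 and Timp2 fell, in RNA and in footprints. In RNA, 2 of 30 members rose against 3.11% of all 10503 genes and 3 of 30 fell against 4.17%. In footprints, 3 of 29 rose against 5.63% of all 10307 genes and 5 of 29 fell against 5.5%. The median log2 fold change of the members was -0.05 in RNA and -0.09 in footprints. All 5 genes called in RNA were among the 8 called in footprints. Smooth muscle markers were lower in the same libraries: their sum over 5 genes was 10835 and 9698 RNA CPM against 15290 and 15052 in WT-shSCR, and 14647 and 14096 against 18816 and 17995 in footprints. Of these 5, 4 fell in RNA (median log2 fold change -1.04) and 5 in footprints, none was at 0 in both libraries of a group, and their part in the member results was not tested. Mmp2, which fell in ArfKO-shSCR, had a log2 fold change of -0.21 (SE 0.13) in RNA and -0.22 (SE 0.08) in footprints of the libraries labelled WT-shARF, and neither passed the test (adjusted p = 0.382 and 0.0723).

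Adamts1 and Adamts5, which cleave aggrecan and versican, are neighbours on the minus strand of chromosome 16 (chr16:85793827-85803113 and chr16:85856173-85901828). Adamts5 RNA was 36.5 and 51.0 CPM in WT-shSCR, 80.2 and 96.5 in WT-shARF and 55.0 and 56.7 in ArfKO-shSCR. Its footprints were 72.7 and 60.0, 115 and 133, and 62.4 and 73.2 CPM. The WT-shARF libraries were highest in both assays, without overlap. Adamts5 rose 2.04-fold in RNA (log2 fold change 1.03, SE 0.20, adjusted p = 0.00132) and 1.85-fold in footprints (0.89, SE 0.16, adjusted p = 0.000145). Adamts1 RNA was 99.5 and 87.3 CPM in WT-shSCR, 143 and 177 in WT-shARF and 136 and 132 in ArfKO-shSCR. Both of the latter groups lay above WT-shSCR. Adamts1 footprints were 219 and 163, 269 and 279, and 211 and 248 CPM, with WT-shARF highest. Adamts1 rose 1.69-fold in RNA (0.76, SE 0.16, adjusted p = 0.00297) and 1.42-fold in footprints (0.51, SE 0.12, adjusted p = 0.00276), and the footprint value was 0.32 without WT-shSCR replicate 2. In ArfKO-shSCR the Adamts1 RNA log2 fold change of 0.50 did not pass the test (adjusted p = 0.0927). Adamts12 footprints fell 1.42-fold (log2 fold change -0.51, SE 0.16, adjusted p = 0.0392, but 0.0945 by DESeq2).

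Among the lysyl oxidases, Loxl2 fell 1.36-fold in RNA of the libraries labelled WT-shARF (adjusted p = 0.0274) and 1.40-fold in footprints (adjusted p = 1.59e-06). Loxl3 had 205 and 199 RNA CPM in WT-shSCR, 129 and 143 in WT-shARF and 216 and 253 in ArfKO-shSCR. Its footprints were 305 and 290, 233 and 212, and 368 and 329 CPM. WT-shARF was lowest in both assays, without overlap. Loxl3 fell in RNA (log2 fold change -0.59, SE 0.15, adjusted p = 0.0102) and 1.35-fold in footprints (-0.43, SE 0.10, adjusted p = 0.00378). Lox footprints rose 1.15-fold (0.21, SE 0.06, adjusted p = 0.0278), and the log2 fold change was 0.13 without WT-shARF replicate 1.

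Timp2 fell 1.47-fold in RNA of the libraries labelled WT-shARF (adjusted p = 0.00989) and 1.48-fold in footprints (adjusted p = 3.58e-05). Timp3, the inhibitor that binds to the matrix (chr10:86300372-86349506), had different values in RNA and footprints. Timp3 RNA was 50.5 and 60.5 CPM in WT-shSCR, 66.4 and 57.3 in WT-shARF and 64.4 and 67.5 in ArfKO-shSCR, with WT-shARF overlapping both other groups. Timp3 footprints were 285 and 306, 203 and 214, and 294 and 287 CPM, with WT-shARF lowest. The footprints fell 1.42-fold (log2 fold change -0.51, SE 0.10, adjusted p = 0.000729), and the RNA value was 0.14 (SE 0.20, adjusted p = 0.763). Timp1 was not called in these libraries.

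Without WT-shARF replicate 2, 0 of the 5 RNA calls were kept, and 2 were kept without WT-shARF replicate 1 (Adamts1 and Adamts5). Without either WT-shSCR replicate 4 of 5 were kept. Of the 8 footprint calls, 6 were kept without either WT-shARF replicate, 8 without WT-shSCR replicate 1 and 5 without WT-shSCR replicate 2. The footprint calls of Adamts5, Loxl2, Timp2 and Timp3 were kept in all 4 refits.

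**Figure D4:**
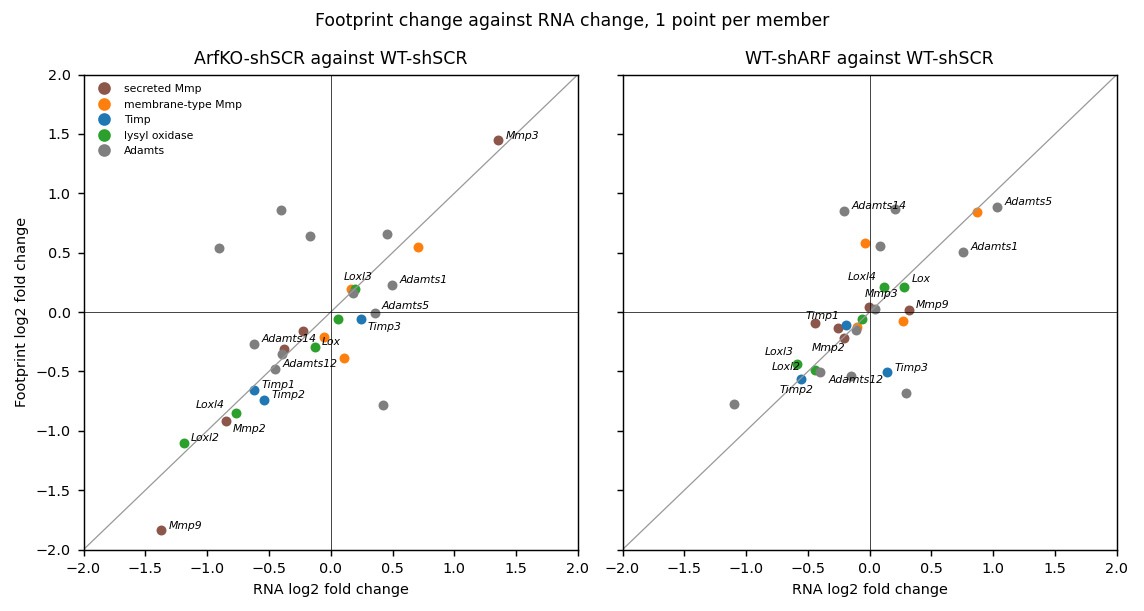
Footprint log2 fold change against RNA log2 fold change for the 28 described members tested in both assays, for ArfKO-shSCR (left) and WT-shARF (right), each against WT-shSCR, with 1 point per member coloured by class, a diagonal of equal change and names for the called members. Loxl2, Mmp2 and Mmp3 lie near the diagonal on the left, and Timp3 lies below it on the right with an RNA value of 0.14 and a footprint value of -0.51.

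A direct comparison tested where ArfKO-shSCR differed from the libraries labelled WT-shARF. Mmp2, Loxl2 and Loxl4 were lower and Loxl3 was higher in ArfKO-shSCR, in RNA and in footprints. In RNA, 1 of 30 members was higher against 1.38% of all 10632 genes and 3 of 30 were lower against 1.19%. In footprints, 3 of 32 were higher against 3.93% of all 10941 genes and 9 of 32 were lower against 4.3%. The 9 include Adamts8, which passed the filter on low counts only through WT-shARF, where it was high. Loxl3 was 1.71-fold higher in RNA (adjusted p = 0.0106) and 1.54-fold higher in footprints (adjusted p = 0.00035). Loxl2 was 1.69-fold lower in RNA (adjusted p = 0.00592), Mmp2 1.57-fold lower (adjusted p = 0.0164) and Loxl4 1.85-fold lower (adjusted p = 0.043, but 0.0979 by DESeq2). The median log2 fold change of the members was -0.17 in RNA and -0.14 in footprints.

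In footprints Mmp9, Timp1, Lox, Adamts5, Adamts14 and Adamts8 were lower in ArfKO-shSCR as well, and Mmp3 and Timp3 were higher. Mmp9 was 3.64-fold lower (log2 fold change -1.86, SE 0.39, adjusted p = 0.0054) and Timp1 1.47-fold lower (-0.56, SE 0.06, adjusted p = 1.36e-05). Lox was 1.42-fold lower (-0.51, SE 0.06, adjusted p = 4.59e-05) and Adamts5 1.87-fold lower (-0.90, SE 0.14, adjusted p = 0.00035). Mmp3 was 2.62-fold higher (adjusted p = 0.00707) and Timp3 1.36-fold higher (adjusted p = 0.00465). Adamts14, an aminopropeptidase of procollagen, had 26.4 and 19.1 RNA CPM in WT-shSCR, 12.2 and 26.4 in WT-shARF and 17.1 and 13.0 in ArfKO-shSCR, with WT-shARF overlapping both other groups. It had 20.8 and 10.5 footprint CPM in WT-shSCR, 31.6 and 26.2 in WT-shARF and 13.0 and 13.8 in ArfKO-shSCR. WT-shARF was highest in footprints, and the difference to ArfKO-shSCR was 2.19-fold (-1.13, SE 0.26, adjusted p = 0.00995). Adamts8 had 19 to 51 RNA counts per library, but 3 and 3 footprint counts in WT-shSCR, 7 and 10 in WT-shARF and 0 and 0 in ArfKO-shSCR. Against a floor of 3 counts per library, Adamts8 footprints were at least 3.87-fold lower in ArfKO-shSCR than in WT-shARF (adjusted p = 0.0246), and no fold is given against WT-shSCR, which was at the floor. The gene passed the filter on low counts only through WT-shARF, where it was high, and the call was lost with no filter (adjusted p = 0.0628) and without either ArfKO-shSCR replicate (0.14 and 0.169).

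Timp2 and Adamts12, whose footprints fell against WT-shSCR in both other groups, were not called in this comparison. The Timp2 RNA difference was 0.01 on the log2 scale (95% interval -0.29 to 0.30). The 4 RNA calls were all kept without ArfKO-shSCR replicate 1 and 3 were kept without replicate 2, but 0 were kept without either WT-shARF replicate. Of the 12 footprint calls, 11 were kept without either ArfKO-shSCR replicate. None of the 11 that could be refitted was kept without either WT-shARF replicate (adjusted p 0.142 to 0.324).

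Translational efficiency (TE) compares footprints with RNA of the same gene. No member passed the test for a TE change in any comparison by edgeR's quasi-likelihood interaction test. For ArfKO-shSCR against WT-shSCR 0 of 31 were called, beside 0.0884% higher and 0.106% lower of 11314 genes. For WT-shARF against WT-shSCR 0 of 31 were called, beside 0.0354% higher and 0% lower of 11289 genes. For ArfKO-shSCR against WT-shARF 0 of 31 were called, beside 0.0172% higher and 0.0258% lower of 11632 genes. At an unadjusted p under 0.05, 2 members were higher and 2 lower in ArfKO-shSCR, and 1 was higher and 1 lower in WT-shARF. For ArfKO-shSCR against WT-shARF, 0 were higher and 1 lower. The share of all genes at this unadjusted threshold was not counted, so no excess is read from these counts. DESeq2 gave 0 member calls as well. In the direct comparison 1 member was called lower when no filter on low counts was used, and 1 with a block for cultures. The lowest-p member in WT-shARF was Timp3, with a TE log2 fold change of -0.63 (SE 0.22, unadjusted p = 0.00572, adjusted p = 0.475). For Loxl2 in ArfKO-shSCR the TE value was 0.06 with a 95% interval of -0.27 to 0.38, and for Mmp2 it was -0.10 with an interval of -0.44 to 0.24.

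The ratio of footprint CPM to RNA CPM still differed widely between members within 1 group. In WT-shSCR the members had a median ratio of 1.15, beside 0.960 over 10677 genes, and 18 of 29 lay above the median of all genes. Timp3 had a ratio of 5.32 (4.71 to 6.05 over the 4 pairings of libraries), above 99.2% of genes. Lox followed at 4.02 (3.55 to 4.57), above 98.4%. Both genes kept high ratios in the other groups, at 3.38 and 3.81 in WT-shARF and 4.40 and 3.64 in ArfKO-shSCR. Mmp14 stood at 2.32, Loxl2 at 2.02, Mmp2 at 1.70 and Timp1 at 1.41, while Loxl1 stood at 0.822. The Adamts genes lay at both ends. Adamts4 stood at 2.97 (1.78 to 6.08 over the pairings) and Adamts1 at 2.05 (1.64 to 2.51), while Adamts2 stood at 0.391 (0.290 to 0.517) and Adamts8 at 0.0820 (0.0699 to 0.0960). The Adamts8 ratio rested on 3 footprint counts in each WT-shSCR library, so its narrow range does not make it precise. Adamts9 at 0.269 (0.123 to 0.724) and Adamts3 at 0.266 (0 to 1.37) were also low, but their libraries differed widely. The ratio is on a relative scale, since each assay was scaled to its own library totals.

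**Figure D5:**
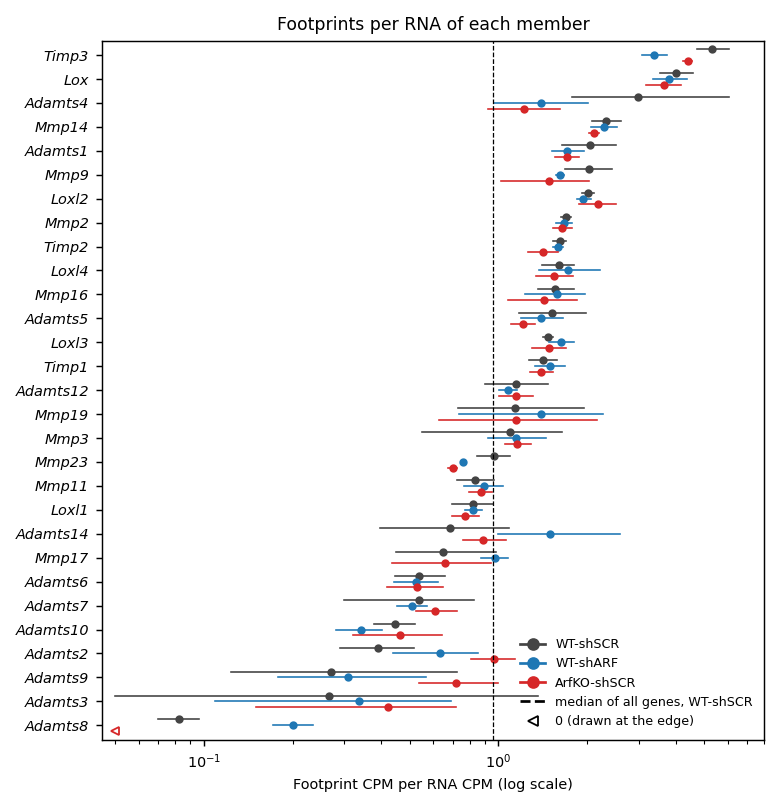
Ratio of footprint CPM to RNA CPM (log axis) of the 29 described members in each group, as the ratio of group means (points) with the range over the 4 pairings of libraries (lines), and the median of all genes in WT-shSCR as a dashed line. Timp3 and Lox are at the top in all 3 groups, and Adamts8 is at the bottom, at 0 in ArfKO-shSCR.

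Other genes of matrix turnover were counted over lists of related genes. Of all genes tested in ArfKO-shSCR against WT-shSCR, 3.99% were lower and 3.94% higher in RNA, and 8.95% and 9.57% in footprints. Plasminogen activators and serpins had 1 of 7 lower in ArfKO-shSCR RNA and 3 of 7 in footprints, and 0 higher. Of other matrix-related proteases and their activators, 10 of 20 were lower in RNA and none higher, and 10 of 21 were lower in footprints and 1 higher. The macrophage markers fell beside them, with 16 of 18 lower in RNA (median log2 fold change -3.16). Several of these markers passed the filter on low counts only through WT-shSCR. The part of the macrophage markers in the list's decrease was not tested. Surface and secreted modulators had 4 of 13 lower in RNA, with 5 of 12 lower and 1 higher in footprints. Lysyl oxidase substrates and elastic fibre partners went both ways, with 3 higher and 2 lower of 18 in RNA and 3 higher and 7 lower in footprints. Proteoglycan substrates of ADAMTS proteases had 1 of 7 lower in RNA, and 3 higher and 2 lower of 7 in footprints. Of AP-1 and other transcription factors known for Mmp promoters, 0 of 17 were called in RNA, and 1 rose and 1 fell of 16 in footprints, under the share of all genes. The medians in RNA ran from -0.58 for the other proteases to 0.14 for the transcription factors, beside -0.00 for all genes.

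The genes of these lists with the largest RNA changes in ArfKO-shSCR were Adam8, a membrane protease of myeloid cells, and Serpine2, an inhibitor of thrombin and plasminogen activators. Adam8 was 9.23-fold lower (adjusted p = 4.67e-07) and Serpine2 8.52-fold lower (adjusted p = 6.14e-08). Fbln1, a fibulin of elastic fibres, was 4.43-fold higher (adjusted p = 5.72e-05). Cathepsin S (Ctss), which is also on the macrophage marker list, was 3.84-fold lower (adjusted p = 0.00203). In footprints Lum, a small leucine-rich proteoglycan that fibroblasts express, had 1 and 1 counts in WT-shSCR and 16 and 29 in ArfKO-shSCR (adjusted p = 0.0129), and it passed the filter on low counts only through ArfKO-shSCR. Its RNA counts were 1 and 4 against 1 and 3, and WT-shARF had 1 and 31 footprint counts.

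In the libraries labelled WT-shARF, 4.17% of all genes were lower and 3.11% higher in RNA, and 5.5% and 5.63% in footprints. In RNA, 2 of 7 plasminogen and serpin genes were lower, and 6 of 20 other proteases were lower with 1 higher. Of the modulators 2 of 13 were lower and 1 higher in RNA. Of the 18 lysyl oxidase substrates and partners, 5 were higher and 2 lower, of the 7 proteoglycans 1 was higher and 1 lower, and of the 17 transcription factors 0 were called. In footprints, 4 of 7 plasminogen and serpin genes were lower and 2 higher, and 10 of 21 other proteases were lower and 1 higher. The summed macrophage markers were lower as well, at 418 and 332 RNA CPM against 846 and 811 in WT-shSCR. Their footprints were 480 and 395 CPM against 978 and 964. Ctss, on both lists, was among the proteases lower in footprints. The part of the macrophage markers in the decrease of the other proteases was not tested. Of the modulators 2 of 12 were lower and 1 higher in footprints, and of the 18 substrates and partners 6 were higher and 4 lower. Of 6 proteoglycans 1 was higher and 1 lower, and of 16 transcription factors 0 were higher and 1 lower. Efemp1, a fibulin, was 3.25-fold higher (adjusted p = 0.00966), Adam8 3.21-fold lower (adjusted p = 3.64e-06), cathepsin D (Ctsd) 2.33-fold lower (adjusted p = 8.47e-08) and Serpine2 2.24-fold lower (adjusted p = 6.92e-05). In footprints Fos, an AP-1 subunit, was 3.43-fold lower (adjusted p = 0.0225). Fos footprints were also called lower in ArfKO-shSCR against WT-shSCR, where Mmp3 rose. In the libraries labelled WT-shARF, Mmp3 footprints had a log2 fold change of 0.05 (SE 0.53), and a link of Fos to Mmp3 was not tested. In the direct comparison cathepsin K (Ctsk), a collagen-cleaving protease, was 4.30-fold higher in ArfKO-shSCR RNA (adjusted p = 0.0399), and Serpine2 was 3.83-fold lower (adjusted p = 0.00128).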

How the data were processed

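RNAseq and ribosome profiling libraries of MEFs were analysed from gene-level read counts (12 libraries, 2 per group and assay). The authors deposited raw counts per gene from HTSeq over coding sequence, on mm10, after cutadapt, UMI-tools, Bowtie2 and TopHat (versions not given in the sources used here), and RNA was fragmented to footprint-like lengths. Molecular identifiers were cut off before mapping, and collapsing of duplicates is not described, so PCR copies may add to the counts. The counting command that is given names no strand setting, so overlapping genes are uncertain. Rows that name no gene stayed out of library sizes. Reads that did not map uniquely were 79.22 to 81.38% of RNA and 46.34 to 52.92% of footprint records, which lowers the depth behind each value. Median depth was 2560631.5 reads for RNA and 3954735 for footprints.

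Counts were tested with edgeR 4.0.16 (R 4.3.3; TMM factors, filterByExpr, quasi-likelihood F test, Benjamini-Hochberg over all genes tested, adjusted p under 0.05), on the 4 libraries of each comparison, and for TE as an assay-by-group interaction. The SE is the log2 fold change divided by the square root of F. CPM levels used TMM factors over the 6 libraries of an assay, and levels per length used coding lengths from GENCODE M21 (GRCm38, the same build as mm10). Promoters were RefSeq's (GRCm38.p6). DESeq2 1.42.0, other scalings and filters, a replicate block and leaving out each library were alternatives. The scripts were tested on simulated data.

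Members with a mean of 10 or more counts were described. Values of every library were given for members called in any test and for the highest 2 per class by RNA per coding length. From other lists at most 4 called genes per comparison and assay were given with a fold change or counts, plus Cdkn2a. Further marker genes were named without a fold change. The members and lists were chosen with earlier results of these data known. Replicate numbers were not used to pair the libraries in the main tests. Deviations of same-numbered libraries correlated between -0.031 and 0.018 across groups. Between RNA and footprints of the same group and number the correlations were 0.027 to 0.077. Counting noise lowers such correlations, so they cannot exclude a pairing. The annotated overlap of 1 further member with another gene is not reported here.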

Additional observations from a re-analysis of the deposited data

How the results depend on the processing

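Across 45 member calls, DESeq2 kept 38, no filter on low counts 43 of 45, at least 10 counts in every library 43 of 43, all 3 groups in one fit 42 of 44, and RLE or upper quartile factors 45 each. None changed direction, and the cause of the lost calls was not tested. In ArfKO-shSCR against WT-shSCR RNA, DESeq2 called 0 members higher and 3 lower, against 1 and 5. In ArfKO-shSCR against WT-shARF RNA, 2 were higher and 7 lower with no filter, against 1 and 3, and 1 TE value was lower with no filter and 1 with a block for cultures, against 0. The fit with a replicate block kept 42 of 45 calls. It lost Timp2 RNA (adjusted p = 0.0594) and Mmp12 footprints (0.0515) in ArfKO-shSCR against WT-shSCR, and Loxl4 RNA (0.0865) in ArfKO-shSCR against WT-shARF. The libraries are known to share only a number. Leaving out 1 library kept 90 of 178 refitted calls. Members called higher and lower then ranged from 0 to 1 and 2 to 4 (RNA) and 0 to 1 and 0 to 7 (footprints) in ArfKO-shSCR against WT-shSCR, from 0 to 2 and 0 to 3 (RNA) and 1 to 4 and 3 to 5 (footprints) in WT-shARF against WT-shSCR, and from 0 to 2 and 0 to 5 (RNA) and 0 to 3 and 0 to 9 (footprints) in ArfKO-shSCR against WT-shARF, and stayed at 0 for TE. The summed RNA of the members without TMM factors was 4955 CPM in WT-shSCR and 4912 in WT-shARF, against 5106 and 4698. Depth limits members under 10 counts, and 2 libraries per group limit every test.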
